A study of Homo sapiens with 4 samples.

Results

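Chromatin modifiers write, read and remove chemical marks on histones and DNA, and remodellers use ATP to slide, evict or exchange nucleosomes. Most work as large multi-subunit complexes, and their genes are often long, with many introns to splice. SMD2, encoded by SNRPD2, is one of the Sm proteins, which form a ring on the small nuclear RNAs of the spliceosome. PAR-CLIP places a protein on RNA in living cells, through ultraviolet crosslinks at incorporated 4-thiouridine.

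The genes described here are those of histone and DNA modifying enzymes, their close relatives and nucleosome remodellers that were listed with an SMD2 peak. They were chosen by symbol: a peak counted when its gene type was protein coding, its class was not intergenic, and its symbol began with one of a fixed set of stems (KMT, KDM, KAT with a digit, ARID, CHD, SMARC, SETD, NSD, ASH1L, ASXL, EHMT, HDAC, BRD with a digit, BPTF, EP300, EP400, CREBBP, TET, DNMT, INO80 and JARID). This gave 142 peaks in 65 genes, out of 9401 peaks in the list, or 1.51% of them. The stems take in a few genes with other known roles, such as SETD3 and SMARCAL1, and leave out chromatin genes with other names.

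The 4 libraries were made from HEK293T, an established human embryonic kidney line: 3 from immunoprecipitation of SMD2 and 1 input library. Every library's labels carry the same protocol, in which cells received 4-thiouridine at 200 uM over 14 h and were crosslinked at 365 nm, with an anti-FLAG antibody and RNase T1 digestion on the beads. The labels do not describe the tagged construct. The single peak list, whose name refers to the SMD2 immunoprecipitation, gives a position, a transcript, a gene and a class for each peak, with no height, score, strand or value per library, so no peak could be set against the input and the depth per library is unknown. Peaks of 1 list are not replicates. All values below are counts, shares with Wilson 95% intervals (counting error only) and medians, and no difference was tested. The list holds no expression level, so the identity of the cells was not checked against marker genes, and the abundance of each RNA was not compared.

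Sequence could be shown for 1 of the 142 peaks. The reference used here gives RefSeq windows from 250 bases before to 50 after a gene's start, and the first of the 4 peaks in NSD2, a histone methyltransferase gene rearranged in multiple myeloma, was the only one to lie in such a window. It covered chr4:1871306-1871330 (hg38) and was labelled as promoter. The window below is chr4:1871143-1871442 on the plus strand of GRCh38.p14, read 5′ to 3′, with the bases of the peak in capitals.

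NSD2: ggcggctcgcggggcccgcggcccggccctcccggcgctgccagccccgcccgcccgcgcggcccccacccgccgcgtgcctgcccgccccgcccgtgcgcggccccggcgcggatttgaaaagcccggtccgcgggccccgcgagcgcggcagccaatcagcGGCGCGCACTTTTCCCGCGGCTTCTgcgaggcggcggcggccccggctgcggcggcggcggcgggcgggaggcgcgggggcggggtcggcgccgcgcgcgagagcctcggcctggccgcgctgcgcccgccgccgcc

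The peak lay 63 to 87 bases before the RefSeq start of NSD2, the gene end used for distances here. On the strand of the gene its 25 bases hold 7 T, the base that 4-thiouridine replaces, 4 of them in a row. They also hold 7 G, the base after which RNase T1 cuts. The list gives no strand for this peak, and on the opposite strand it holds 1 T and 10 G. Its GC content was 68%, against 86.7% for the 300-base window and a median of 58.7% over 34943 such windows. Neither the letters ATTTTTG, like the Sm site of small nuclear RNAs, nor GTAAGT, like a 5′ splice site, occur on either strand of this window. They occur in 4.13% and 6.35% of all windows. The other 3 peaks of NSD2 were intronic, at 1877078-1877118, 1887474-1887496 and 1957893-1957921 on chromosome 4.

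RefSeq holds 128 protein-coding genes with these stems, and 65 of them (50.8%, interval 42.2 to 59.3%) were listed with at least 1 peak. The 128 include 4 in no family list and without a peak: BRD3OS, CHD9NB, BRD10 and SETDB2-PHF11, which has the same RefSeq start as SETDB2. With the named families in place of the symbol rule the share was 52.4%. Of all 20056 RefSeq protein-coding genes, 21.4% were. At least 2 peaks were found in 35 of the 128 genes (27.3%), against 7.26% of all protein-coding genes, at least 3 in 19 (14.8%), against 2.81%, and at least 5 in 3 genes (2.34%), against 0.538%. Among the 65 genes, 30 had 1 peak, 16 had 2, 11 had 3 and 5 had 4. KMT2C, ARID4B and ASH1L, with 10, 9 and 8 peaks, held 27 of the 142 peaks (19.0%). Chromatin genes with a peak averaged 2.18 ± 1.80 peaks (SD over 65 genes), against 1.55 ± 1.01 in other protein-coding genes (SD over 4343 genes).

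**Figure D1:**
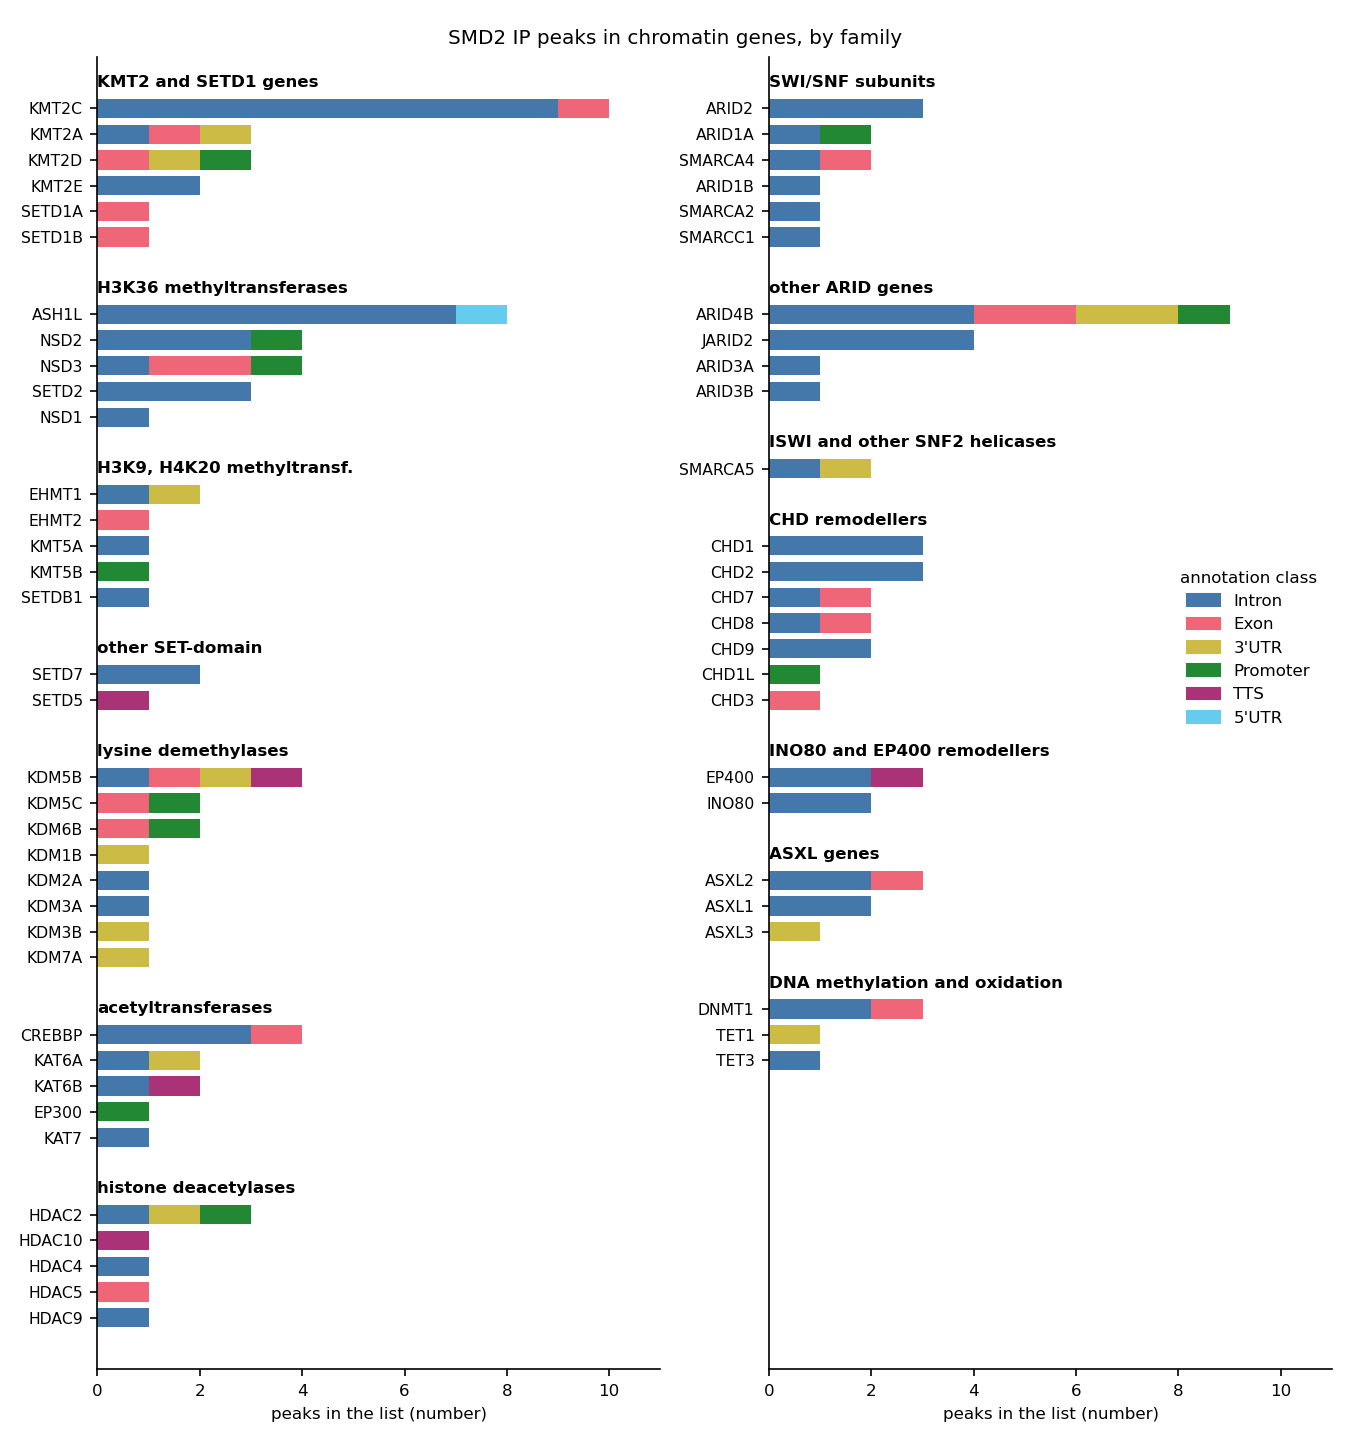
Number of SMD2 IP peaks (x axis) in the chromatin genes that hold one (y axis), without the bromodomain family, grouped by family and coloured by the authors' annotation class (TTS, transcription termination site). KMT2C, ARID4B and ASH1L stand apart with 10, 9 and 8 peaks, and the other genes drawn have 4 or fewer.

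The KMT2 and SETD1 genes, most of which code for enzymes that methylate histone H3 at lysine 4, had 20 peaks in all. A peak was found in 6 of 7 genes (interval 48.7 to 97.4%). KMT2C, an enhancer methyltransferase often mutated in tumours, had 9 intronic peaks and 1 exonic peak. Its paralog KMT2D had 3 peaks, none of them intronic. KMT2A, the MLL gene rearranged in leukaemia, had 3, KMT2E, whose product is not known as an active lysine 4 methyltransferase, had 2, and SETD1A and SETD1B, the catalytic subunits of the SET1 complexes, had 1 exonic peak each. KMT2B was the only gene of this group without one.

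All 5 enzymes listed for lysine 36 of histone H3 had a peak (interval 56.55 to 100%), again with 20 in all, 15 of them intronic. ASH1L had 8, NSD2 and NSD3 had 4 each, SETD2, which makes the trimethyl mark, had 3, and NSD1 had 1. Enzymes for lysine 9 of histone H3 and lysine 20 of histone H4 had a peak in 5 of 7 genes but only 6 peaks: 2 in EHMT1 and 1 each in EHMT2, SETDB1, KMT5A and KMT5B. Of 6 other SET-domain genes, SETD7 had 2 peaks and SETD5 had 1.

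Lysine demethylases, which remove methyl groups, had a peak in 8 of 20 genes, with 13 peaks. KDM5B, which acts on lysine 4 of histone H3, had 4 peaks in 4 classes. KDM5C and KDM6B had 2 each, and KDM1B, KDM2A, KDM3A, KDM3B and KDM7A had 1 each. In this group 3 of the 13 peaks were intronic and 4 were labelled 3' UTR. None of the KDM4 genes held a peak outside the intergenic class.

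Acetyltransferases had a peak in 5 of 10 genes. CREBBP, a transcriptional coactivator, had 4 peaks, its paralog EP300 had 1, KAT6A and KAT6B had 2 each and KAT7 had 1. Histone deacetylases had a peak in 5 of 11 genes. HDAC2, the catalytic subunit of several corepressor complexes, had 3 peaks, in an intron, a 3' UTR and the promoter class. HDAC4, HDAC5, HDAC9 and HDAC10 had 1 each.

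Among remodellers, subunits of SWI/SNF, which moves nucleosomes at enhancers and promoters, had a peak in 6 of 14 genes, with 8 of 10 peaks intronic. ARID2 had 3 peaks, ARID1A and the ATPase gene SMARCA4 had 2 each, and ARID1B, SMARCA2 and SMARCC1 had 1 each. The small core subunit genes SMARCB1, SMARCE1 and SMARCD1 had none. CHD genes, most of which code for chromodomain helicases (CHD1L lacks the chromodomain), had a peak in 7 of 10 cases: CHD1 and CHD2 had 3 each, CHD7, CHD8 and CHD9 had 2 each, and CHD3 and CHD1L had 1 each. EP400 had 3 peaks and INO80 had 2, while 4 INO80 accessory genes had none. Of the 5 genes in the list named for ISWI and other SNF2 helicases, only SMARCA5, an ISWI ATPase gene, had a peak, with 2. SMARCA1, SMARCAD1, SMARCAL1 and BPTF, also in that list, had none.

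Other ARID genes had 15 peaks in 4 of 8 genes. ARID4B, a subunit of the SIN3 deacetylase complex, held 9 of these, JARID2, a cofactor of Polycomb repressive complex 2, had 4 intronic peaks, and ARID3A and ARID3B had 1 each. All 3 ASXL genes, partners of a histone H2A deubiquitinase, had a peak (interval 43.85 to 100%): ASXL2 had 3, ASXL1 had 2 and ASXL3 had 1. Among bromodomain genes, which code for readers of acetylated histones, BRD1 had 2 peaks and BRD2 had 1. For DNA methylation and its removal, DNMT1, the maintenance methyltransferase, had 3 peaks, TET1 and TET3 had 1 each, and DNMT3A, DNMT3B, DNMT3L and TET2 had none. The 15 families of 3 to 20 genes are too small for their shares to be ranked: for lysine demethylases the interval ran from 21.9 to 61.3%, and for CHD genes from 39.7 to 89.2%. Families also differed in median span, from 38.5 kb for the lysine 9 and 20 enzymes to 148 kb for the lysine 36 enzymes. ASXL genes had a median span of 145 kb. Of all protein-coding genes 21.4% had a peak, from 9.82% of those under 20 kb to 45% of those over 200 kb.

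Some close relatives differed in their number of peaks and others did not, and all pairs given here were chosen after their values were seen. Equal numbers were found in NSD2 and NSD3, CHD1 and CHD2, KAT6A and KAT6B, and SETD1A and SETD1B, with 4, 3, 2 and 1 peaks in each gene of the pair. HDAC2 had 3 peaks in 38.1 kb and HDAC1 had none in 41.5 kb. KDM5B had 4 in 83.9 kb and KDM5A had none in 109 kb. ARID4B had 9 in 161 kb, whereas ARID4A had none in 75.3 kb. For KMT2C and KMT2D the order depended on the scale: KMT2C had 10 peaks and KMT2D had 3, but per 100 kb of gene span KMT2C had 3.32 and KMT2D had 7.17. Differences of a few peaks in 1 list carry no replicate error, and none of these was tested.

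The chromatin genes were long, and length went with the number of peaks. Their median span was 66.3 kb, against 24.0 kb for other protein-coding genes. Within the chromatin genes the median span was 92.2 kb with a peak and 38.6 kb without. Across the 128 genes the number of peaks had a Spearman rho of 0.432 with span, a description over genes that share 1 list and are not replicates.

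Within groups of like span the chromatin genes still had the higher share with a peak, by sizes that varied. Under 20 kb, 3 of 22 chromatin genes held a peak (13.6%, interval 4.75 to 33.3%), against 9.82% of all protein-coding genes of that span. Between 20 and 50 kb, 12 of 29 did (41.4%, 25.5 to 59.3%), against 23.7%. Between 50 and 100 kb, 19 of 33 did (57.6%, 40.8 to 72.8%), against 32.3%. In the shortest group the interval includes the value of all genes, and in the other groups given so far it lies above that value. Between 100 and 200 kb, 22 of 31 did (71.0%, 53.4 to 83.9%), against 36.6%, a value below the interval. Over 200 kb, 9 of 13 did (69.2%, 42.4 to 87.3%), against 45%, a value inside the interval. The limits of these groups were set after the list was seen. Expression in HEK293T was not available here, so its part in these shares was not tested.

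**Figure D2:**
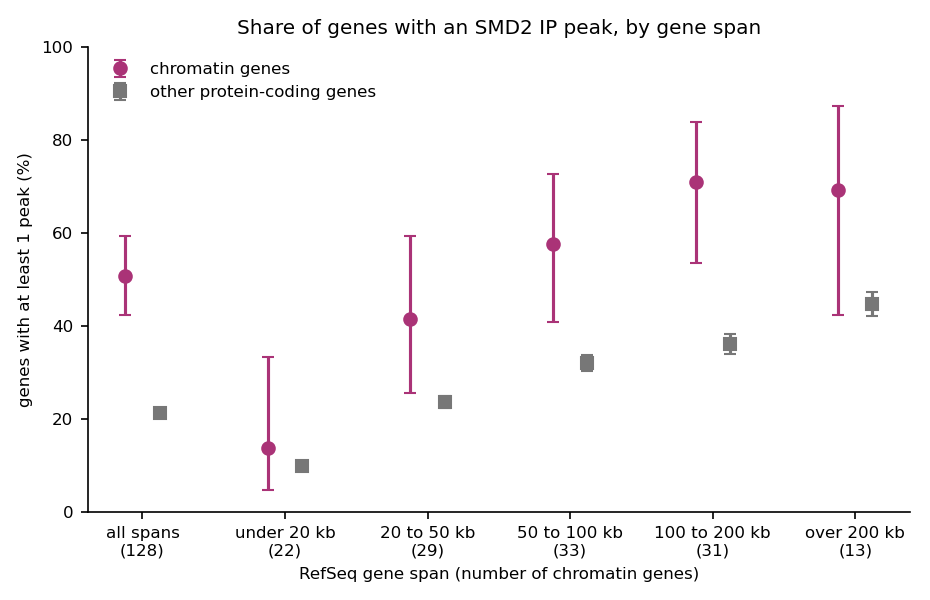
Share of genes with at least 1 SMD2 IP peak (y axis, %) by RefSeq gene span (x axis), for chromatin genes (circles) and other protein-coding genes (squares), with Wilson 95% intervals as bars and the number of chromatin genes in brackets. The chromatin genes lie at 13.6% under 20 kb and at 71.0% between 100 and 200 kb, and the 2 groups' intervals overlap under 20 kb and over 200 kb.

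Span did not fix the number of peaks of a single gene. Of the 44 chromatin genes of 100 kb or more, 31 had a peak and 13 had none: KDM4C, HDAC8, KDM6A, CHD6, ARID5B, KDM4B, KDM2B, BPTF, TET2, BRD10, DNMT3A, KAT2B and KDM5A. The longest of all, HDAC9 with 916 kb, had 1 peak. At the other end, HDAC10 had 1 peak in 6.08 kb, BRD2 had 1 in 12.9 kb and EHMT2 had 1 in 17.9 kb. KDM6B, a demethylase that removes a Polycomb mark, had 2 peaks in 20.6 kb, or 9.72 per 100 kb. Summed over the 128 genes there were 1.14 peaks per 100 kb, against 0.514 for other protein-coding genes. Counting only genes with a peak, the densities were 1.72 and 1.36 per 100 kb.

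**Figure D3:**
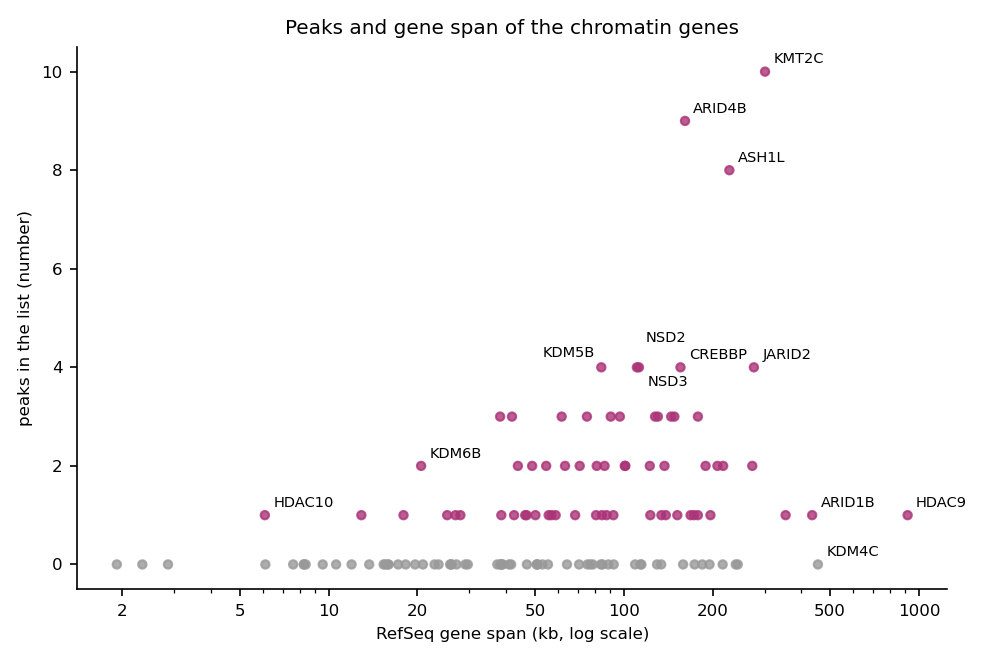
Number of SMD2 IP peaks (y axis) against RefSeq gene span (x axis, kb, log scale) for each of the 128 chromatin genes, coloured where a gene has a peak and grey where it has none. KMT2C, ARID4B and ASH1L lie highest, HDAC9 is the longest gene with 1 peak in 916 kb, and KDM4C has none in 455 kb.

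Introns held most of the peaks. Of the 142 peaks, 86 were intronic (60.6%, interval 52.4 to 68.2%), against 61.7% of 6744 peaks of other protein-coding genes. Exons held 22 (15.5%, 10.5 to 22.3%), against 10.1%, and 3' UTRs held 16 (11.3%, 7.06 to 17.5%), against 14.9%. The promoter class held 12 (8.45%, 4.90 to 14.2%), against 8.70%, termination sites held 5 (3.52%), against 3.80%, and the 5' UTR class held 1 peak (0.70%), against 0.83%. The interval of the chromatin genes included the value of the other genes in every class but exons, whose value lay just under its lower bound. That difference was not tested. The lower bound fell below 10.1% with peaks of at least 20 nt (9.79%), with the named families in place of the symbol rule (10.03%) and without peaks on another gene (9.73%). It stayed above 10.1% with near peaks merged (10.69%), with the widest peak of each gene (10.89%) and with peaks inside the RefSeq span (10.54%). Without KMT2C it was 10.65%, and without KMT2C, ARID4B and ASH1L 10.84%. The 10.1% of the other genes was not counted anew under these alternatives. Counted by gene, the mix was different from that of other genes. Intronic peaks alone were found in 24 of the 65 genes (36.9%, 26.2 to 49.1%), against 50.6% of 4343 other protein-coding genes. Both intronic and other peaks were found in 22 (33.8%, 23.5 to 46.0%), against 15.0%, and no intronic peak in 19 (29.2%, 19.6 to 41.2%), against 34.3%. A gene needs at least 2 peaks to have both kinds, and more of the chromatin genes had that many. Among genes with 2 or more peaks, 22 of 35 chromatin genes had both (62.9%, 46.3 to 76.8%), against 44.9%, and among genes with 1 peak it was intronic in 14 of 30 (46.7%, 30.2 to 63.9%), against 55.9%. The number of peaks was not held equal among genes with 2 or more. There, 19 of the 35 chromatin genes had 3 or more peaks, against 551 of 1453 other genes. The part of this in the share with both was not tested.

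**Figure D4:**
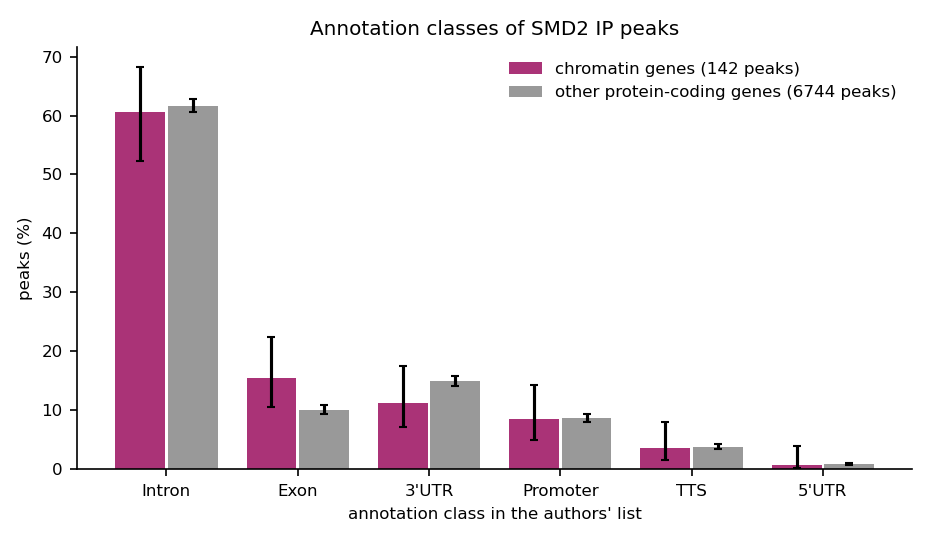
Share of peaks (y axis, %) in each annotation class (x axis) for the 142 peaks of chromatin genes and the 6744 peaks of other protein-coding genes, with Wilson 95% intervals as black bars. Introns hold 60.6% of the chromatin gene peaks and 61.7% of the others, and the exon bars stand at 15.5% and 10.1%.

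Exonic peaks lay in genes of most families. NSD3 and ARID4B had 2 each, and 18 genes had 1, among them KMT2A, KMT2C, KMT2D, SETD1A, SETD1B, CREBBP, SMARCA4, DNMT1 and KDM5B. Peaks in the 3' UTR class were found in 14 genes, among them ARID4B with 2 and KMT2A, KMT2D, HDAC2, EHMT1 and TET1 with 1 each.

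Each peak was listed with a transcript, and in some genes that transcript varied. How the classes were set is not given, and they did not always follow the order of the parts of a transcript. Of the 35 genes with 2 or more peaks, 13 had peaks labelled on more than 1 transcript, and KMT2C had them on 4. Strand and gene ends were known for 55 of the 65 genes. Of 11 promoter peaks in these, 5 lay within 1000 nt of the RefSeq 5′ end: NSD2, HDAC2, ARID4B, KDM5C and EP300, of which all but NSD2 lay inside the gene. The HDAC2, ARID4B, KDM5C and EP300 peaks began 131, 157, 174 and 566 nt from that end. Of the promoter peaks of other protein-coding genes, 119 of 471 (25.3%) lay as near, a value inside the interval of the chromatin genes (45.5%, 21.3 to 72.0%). The other promoter peaks lay deep in their genes, for example 32382 nt from the 5′ end in ARID1A and 69987 nt in CHD1L. Likewise 1 of 5 termination-site peaks, that of KAT6B, and 2 of 13 peaks of the 3' UTR class, those of KDM1B and KDM3B, lay within 1000 nt of the RefSeq 3′ end. In other protein-coding genes 92 of 212 termination-site peaks (43.4%) and 237 of 817 peaks of the 3' UTR class (29.0%) did, so labels far from the RefSeq end were common in both sets of genes. In KMT2A, whose 3 peaks were listed on the same transcript, the 3' UTR label stood on a peak 77410 nt before that end. That peak lay 12896 nt from the 5′ end, nearer to it than the intronic peak (19502 nt) and the exonic peak (48454 nt).

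Along the gene, peaks were spread from end to end. Of 122 peaks inside a gene of known strand, 13 lay in the first 10% of the span (10.7%, interval 6.33 to 17.4%), against 8.75% of 5476 peaks of other protein-coding genes. In the last 10% lay 25 of 122 (20.5%, 14.3 to 28.5%), against 1097 of 5476, a value inside the interval. Peaks of the intron class had their median at 40.0% of the way from the 5′ end, against 47.1%. Within the last 1000 nt lay 4 peaks (3.28%, 1.28 to 8.13%), against 7.93%. A fixed 1000 nt is a smaller part of a longer gene, and the median span of genes with a peak was 92.2 kb, against 54.0 kb.

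Peaks of 1 gene were mostly far apart. Among 77 neighbouring pairs the median gap was 20970 nt, against 14306 nt in other protein-coding genes, and the largest, 215539 nt, was in CHD9. Gaps were not scaled to gene span, whose median for genes with a peak was 92.2 kb, against 54.0 kb. Only 5 pairs lay within 1000 nt of each other, among them pairs in ARID4B, CREBBP, KMT2C and KMT2D, so that 10 of 142 peaks (7.04%, interval 3.87 to 12.5%) had a near neighbour, against 8.04% of other peaks. The gaps were 30 nt in ARID4B, 0 in CREBBP, 331 nt in KMT2C and 509 nt in KMT2D.

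KMT2C, with a span of 301 kb on chromosome 7, had its 10 peaks spread unevenly. The shortest stretch with 4 of them covered 6196 nt, at 152392483-152398678, in introns of the 5′ part of the gene. The single peaks there were at 152392483-152392500, 152392832-152392855, 152395898-152395922 and 152398661-152398678, 18, 24, 25 and 18 nt wide. They lay 37325 to 43503 nt from the 5′ end. Further along came intronic peaks at 152362155-152362196 (42 nt), 152292284-152292308 (25 nt), 152260637-152260664 (28 nt), 152197791-152197812 (22 nt) and 152194572-152194600 (29 nt). The exonic peak, at 152150927-152150948, was 22 nt wide and lay 16002 nt before the 3′ end. Part of KMT2C is duplicated elsewhere in the genome, and reads of such copies cannot be told apart with certainty. The list also held 1 peak on the copy KMT2CP3, at 143479393-143479416 on chromosome 1.

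ARID4B, on chromosome 1 with a span of 161 kb, had peaks in 4 classes, and its 3′ part held most of them. Both peaks of the 3' UTR class, at 235168410-235168431 (22 nt) and 235168462-235168479 (18 nt), lay 1508 and 1560 nt before the 3′ end. Exonic peaks followed at 235177820-235177866 (47 nt) and 235181838-235181861 (24 nt), and intronic ones at 235187887-235187905 (19 nt), 235199638-235199663 (26 nt), 235269714-235269732 (19 nt) and 235286044-235286074 (31 nt). The gap of 70050 nt in the middle of the gene was its largest. The promoter peak, at 235327985-235328022 (38 nt), also lay within the neighbouring gene GGPS1, an enzyme of isoprenoid synthesis.

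ASH1L, on chromosome 1 with a span of 228 kb, had 7 intronic peaks and 1 of the 5' UTR class. The 5' UTR peak, at 155562309-155562345 (37 nt), also lay on the antisense gene ASH1L-AS1. Intronic peaks were at 155545865-155545889 (25 nt), 155519123-155519154 (32 nt), 155472810-155472832 (23 nt), 155443681-155443710 (30 nt), 155435461-155435481 (21 nt), 155378944-155378964 (21 nt) and 155377561-155377583 (23 nt). No 4 of its peaks lay as close as those of KMT2C.

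**Figure D5:**
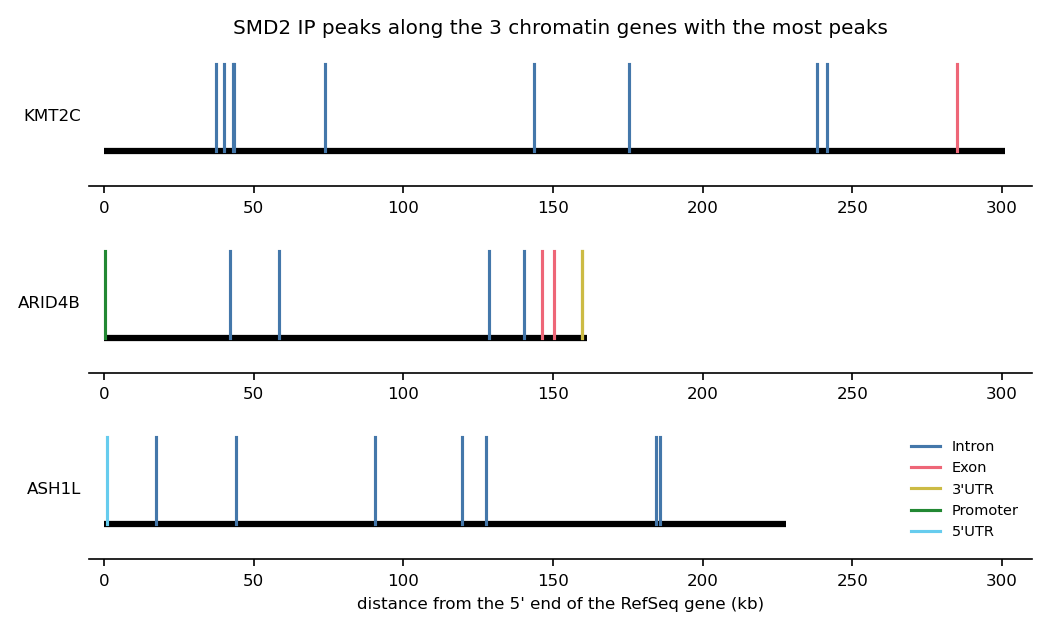
Positions of the peaks along KMT2C, ARID4B and ASH1L, as distance from the 5′ end of the RefSeq gene (x axis, kb); black bars show each gene's span and vertical lines its peaks, coloured by annotation class. In KMT2C 4 intronic peaks stand within 6196 nt, and in ARID4B the 5 non-intronic peaks stand at either end of the gene.

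The list has no strand, so a peak on overlapping genes could belong to either. This held for 6 of the 142 peaks. Besides those of ARID4B and ASH1L, the promoter peak of HDAC2 lay on HDAC2-AS2, the exonic peak of KDM5B at 202796249-202796269 on chromosome 1 lay on the pseudogene SLC25A39P1, and 1 peak each of CHD8 and INO80 lay on a long noncoding RNA gene.

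Peaks of the chromatin genes were narrow, with a median of 25 nt (interquartile range 21 to 34 nt), against 24 nt (20 to 31 nt) for other protein-coding genes. The median's interval, 23 to 27 nt, includes that of the others. The 12 promoter peaks had a median of 38.5 nt, against 25 nt for 587 promoter peaks of other genes, and the 86 intronic peaks had a median of 24 nt, against 23 nt. Exonic peaks had medians of 23.5 and 23 nt. The order was reversed in the 3' UTR class (22.5 against 25 nt) and at termination sites (19 against 26 nt). The only peak of the 5' UTR class was 37 nt wide, against a median of 24 nt. These medians rest on few peaks, and no difference in width was tested. The widest, 88 nt, was the promoter peak of KDM5C at 53224946-53225033 on chromosome X, and CREBBP had the next widest, 83 nt in an exon at 3736054-3736136 on chromosome 16. The narrowest, 7 nt, was an intronic peak of CREBBP at 3848024-3848030, which adjoined one of 21 nt.

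Partners of these enzymes that the symbol rule does not cover were counted in the same way. Of 120 such genes in 6 lists, 63 held a peak (52.5%, interval 43.6 to 61.2%), against the 21.4% of all protein-coding genes given above, with 116 peaks, 72 of them intronic. These genes were also longer, with a median span of 42.5 kb, against 24.0 kb for the protein-coding genes outside the symbol rule. By span, 7 of 31 held a peak under 20 kb (22.6%, 11.4 to 39.8%), against 9.82% of all protein-coding genes, and 21 of 37 between 20 and 50 kb (56.8%, 40.9 to 71.3%), against 23.7%. Between 50 and 100 kb 14 of 24 did (58.3%, 38.8 to 75.5%), against 32.3%, between 100 and 200 kb 14 of 20 (70.0%, 48.1 to 85.5%), against 36.6%, and over 200 kb 7 of 8 (87.5%, 52.9 to 97.8%), against 45%. Polycomb genes, which silence developmental loci, had a peak in 13 of 28 cases, with 4 peaks in SUZ12, 3 each in AEBP2 and RBBP7 and 2 in CBX6. Cofactors of the lysine 4 methyltransferases had one in 6 of 13, with 6 peaks in NCOA6, 2 each in MEN1 and PSIP1 and 1 in HCFC1. SWI/SNF partners had one in 7 of 16, with 3 in SS18, 2 in PBRM1 and 1 each in BCL7A and BCL7B.

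Partners in the NuRD, SIN3 and CoREST corepressors had a peak in 12 of 20 cases, with 3 each in NCOR1, RCOR3, SIN3B and TBL1X. Those in NuA4, SRCAP and INO80 had one in 14 of 22, with 3 each in EPC2 and YEATS4 and 2 each in MORF4L1 and UCHL5. Other SNF2 and lysine 9 genes had one in 11 of 21, with 6 in ATRX, 5 in RSF1 and 2 each in CBX5 and HELLS. The demethylase-family gene JMJD1C, outside the symbol rule, had 6 intronic peaks in 355 kb. SETMAR, another family gene that the rule leaves out, had no peak in 13.9 kb.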

How the data were processed

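The authors deposited 1 list of peak positions, used here as given. The build hg38, Bowtie2 2.5.1 and Trim Galore 0.6.10 are named per the submitters' processing notes. How peaks were called and annotated, with which threshold, and whether libraries were pooled or compared with the input, is not given in the sources used here. Groups follow the sample titles. Starts, counted from 0 in the list, are printed counted from 1. Peaks were joined by symbol and chromosome to a RefSeq gene table of GRCh38.p14, which matched 6735 of 6886 protein-coding peaks outside the intergenic class and all 142 of the chromatin genes. In all, 4298 RefSeq protein-coding genes held a peak by this match. Strand came from the RefSeq promoter windows, found for 55 of the 65 genes. Span is the RefSeq gene length, introns included.

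The genes and all lists were chosen with earlier results of these data known. Families, partner lists and alternatives were written down by symbol; the rule named chromatin genes with their number of peaks (1 gene, kept in all counts, is not reported here), gave all positions for genes with 5 or more, and named up to 4 partners a list, the widest and narrowest peak and any in a promoter window. Alternatives merged near peaks, set a minimum width, took the widest peak of a gene, required 2 peaks, or changed the genes counted. Others kept only peaks inside the RefSeq span or left out entries after the sorted part of the list. The span groups and the pairs of relatives were chosen after the list was seen. Tables were made in Python 3.11.15 (pandas 2.3.3, numpy 2.4.6, scipy 1.17.1) and drawn with matplotlib 3.10.9.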

Additional observations from a re-analysis of the deposited data

How the results depend on the processing

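No paired analysis was possible because the list has no column per library, and for the same reason no library could be left out and no stricter score threshold applied. Of 128 values under an alternative, over 15 results, 115 stayed within the interval of the reported value, or within 1.5 times it for a count. This number is no measure of robustness, because some of these values could not change or could hardly change. Leaving out the 12 entries after the sorted part of the list removed 0 chromatin gene peaks, so every value stayed as reported. Keeping only peaks inside the RefSeq span left 141 of 142, and merging could not change the number of genes with a peak. With the widest peak of each gene the number of peaks was 65, the intronic share 49.2% in place of 60.6%, the median width 34 nt in place of 25 nt and the density 0.521 per 100 kb in place of 1.14. By construction no gene then had a second or a nearby peak (0%). With peaks within 50 nt merged, 2.88% of peaks had a near neighbour in place of 7.04%, and with peaks of at least 20 nt 1.68% did and the density was 0.954. With 2 peaks required, 27.3% of chromatin genes passed in place of 50.8%. Without 665 placeholder names, none of which matched a listed gene, the share of all protein-coding genes with a peak was 22.2% in place of 21.4%. In 2 alternatives chosen after seeing the data, without KMT2C, ARID4B and ASH1L and without peaks on another gene, the 5' UTR share was 0% in place of 0.70%, since its only peak was in ASH1L.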

Other observations

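Another 7 entries of the list bear a name that matches the symbol stems but fall outside the rule. KDM4A and CHD6 each had 1 peak of the intergenic class, 23 and 30 nt wide, at 43635885-43635907 on chromosome 1 and 41636038-41636067 on chromosome 20, and neither gene had any other. Pseudogenes held 3: KMT2CP3, SMARCE1P5 with the widest, 86 nt, and TET1P1, whose parent gene TET1 also had a peak, while SMARCE1 had none. Antisense RNAs held 2, KDM4A-AS1 with 23 nt and SMARCA2-AS1 with 18 nt. Reads of a pseudogene and its parent may be hard to tell apart.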
